A study of Homo sapiens with 6 samples.

Results

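The genes described here are the transcriptional coactivators YAP1 and WWTR1 (which encodes TAZ), their DNA-binding partner TEAD1, the inhibitory kinase LATS2, the inhibitory scaffold AMOTL2, and the target genes CTGF, CYR61, ANKRD1, F3 and AXL. They were chosen by symbol, without use of their values in the rule, and all 10 were among the 16258 genes of the table and passed the filter on low values. Expression was measured in MDA-MB-231, an established cell line from a human triple-negative breast cancer with a spindle-shaped, motile phenotype, cultured with serum. Migratory cells, taken from microfluidic devices for their high motility, were compared with the unsorted population, with 3 samples of 1000 cells in each group. The labels name no genetic or drug treatment for either group. The labels give no separate cultures for the samples, so p-values here rest on a spread that may be technical. Time in the device and the sorting itself cannot be told apart from the motility of the cells, nor, in bulk RNA, can fewer cells of a kind be told apart from less RNA per cell.

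YAP and TAZ carry no DNA-binding domain and act by binding TEAD factors at enhancers and promoters. In the Hippo pathway the kinases MST1 and MST2 (genes STK4 and STK3) activate LATS1 and LATS2, which phosphorylate YAP and TAZ so that they are held in the cytoplasm and degraded. Much of this control acts on the proteins and is not seen in transcript counts. LATS2 and AMOTL2 are both inhibitors and targets of YAP and TAZ, a known negative feedback, and in breast cancer cells the pathway is studied for its part in motility, matrix sensing and metastasis.

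The deposited values, called normalised read counts below, are reads per gene corrected for library depth and not for gene length. The reads behind them came to 27032454 to 34511537 in the migratory libraries and to 32789072 to 74227978 in the unsorted libraries, the deepest being unsorted replicate 2. The lowest value of any of the 10 genes rested on 248 reads (LATS2, unsorted replicate 1). The line's mesenchymal marker VIM was at 17418 to 20315.0 in migratory and 13455 to 15851 in unsorted libraries, while the epithelial cadherin CDH1 was at 0 to 20.5 and 0 to 28.3. Other markers of the line had means in migratory and unsorted cells of 23109 and 20267 (CD44), 40020 and 25151 (MSN) and 4076 and 2655 (EGFR). ERBB2, for which absent or low values were expected, was at 722 to 1742 and 588 to 1340. ESR1 and PGR were not analysed. Of 10 fibroblast markers 5 were measured, with summed values of 818 to 2111 in migratory and 2772 to 4183 in unsorted libraries, and DCN, PDGFRA, FAP, THY1 and POSTN were not analysed. None of 5 erythroid markers was analysed, 3 of 9 haematopoietic markers were measured (sums of 360.2 to 641 and 776 to 974) and 3 of 8 keratinocyte markers (sums of 3993 to 7033 and 4327 to 5774). Of 9 endothelial markers 5 were measured, with sums of 9708 to 12453 and 8389 to 11929, while CDH5, VWF, CLDN5 and EMCN were not analysed. Most of that sum was ESAM (means of 10536 and 8565), whereas PECAM1, picked out after its values were seen, was at 783 ± 197 and 1565 ± 316, with every migratory library below every unsorted one (limma adjusted p 0.121). The same held for CD14 (65.6 ± 41.1 and 356 ± 66.1), COL1A2 (641 ± 399 and 1956 ± 818) and COL1A1 (163 ± 83.9 and 389 ± 134), also picked out afterwards. Their limma adjusted p were 0.0685, 0.121 and 0.166, and 12.5% of all genes tested were separated in that direction. Mitochondrial transcripts took 0.951% to 1.57% of reads in migratory and 1.37% to 2.17% in unsorted libraries, and the part of these markers and shares in the results was not tested.

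Of the 5 target genes, F3, AXL and CYR61 had every migratory library above every unsorted one, while CTGF and ANKRD1, like YAP1, WWTR1, TEAD1, LATS2 and AMOTL2, overlapped between the groups. F3 had the largest difference of the 10 at 1.90-fold (95% interval 1.44 to 2.51), AXL was at 1.56-fold (1.18 to 2.07), CTGF at 1.62-fold (1.06 to 2.48) and CYR61 at 1.37-fold (1.05 to 1.80). No member passed an adjusted p of 0.05 in limma, a linear model fitted over all 15786 genes tested, in which 0.234% of genes passed in either direction and 0.0443% were called higher. At an unadjusted p under 0.05, 4 of the 10 were higher (CTGF, CYR61, F3 and AXL) and 0 lower, where 7.7% of all tested genes were higher and 17.7% differed in either direction. In 3 of the 10 every migratory library lay above every unsorted library (CYR61, F3 and AXL), where 11.3% of all tested genes did so, and in 0 every migratory library lay below, where 12.5% did. The genes were picked with earlier results of these data known, so these counts describe them and are no independent support. On whole reads recovered from the table, edgeR called 0 of the 10, where it called 0.133% of all genes (0.0253% higher). DESeq2 called F3 and AXL, both higher, where it called 5.91% of all genes (2.31% higher).

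**Figure D1:**
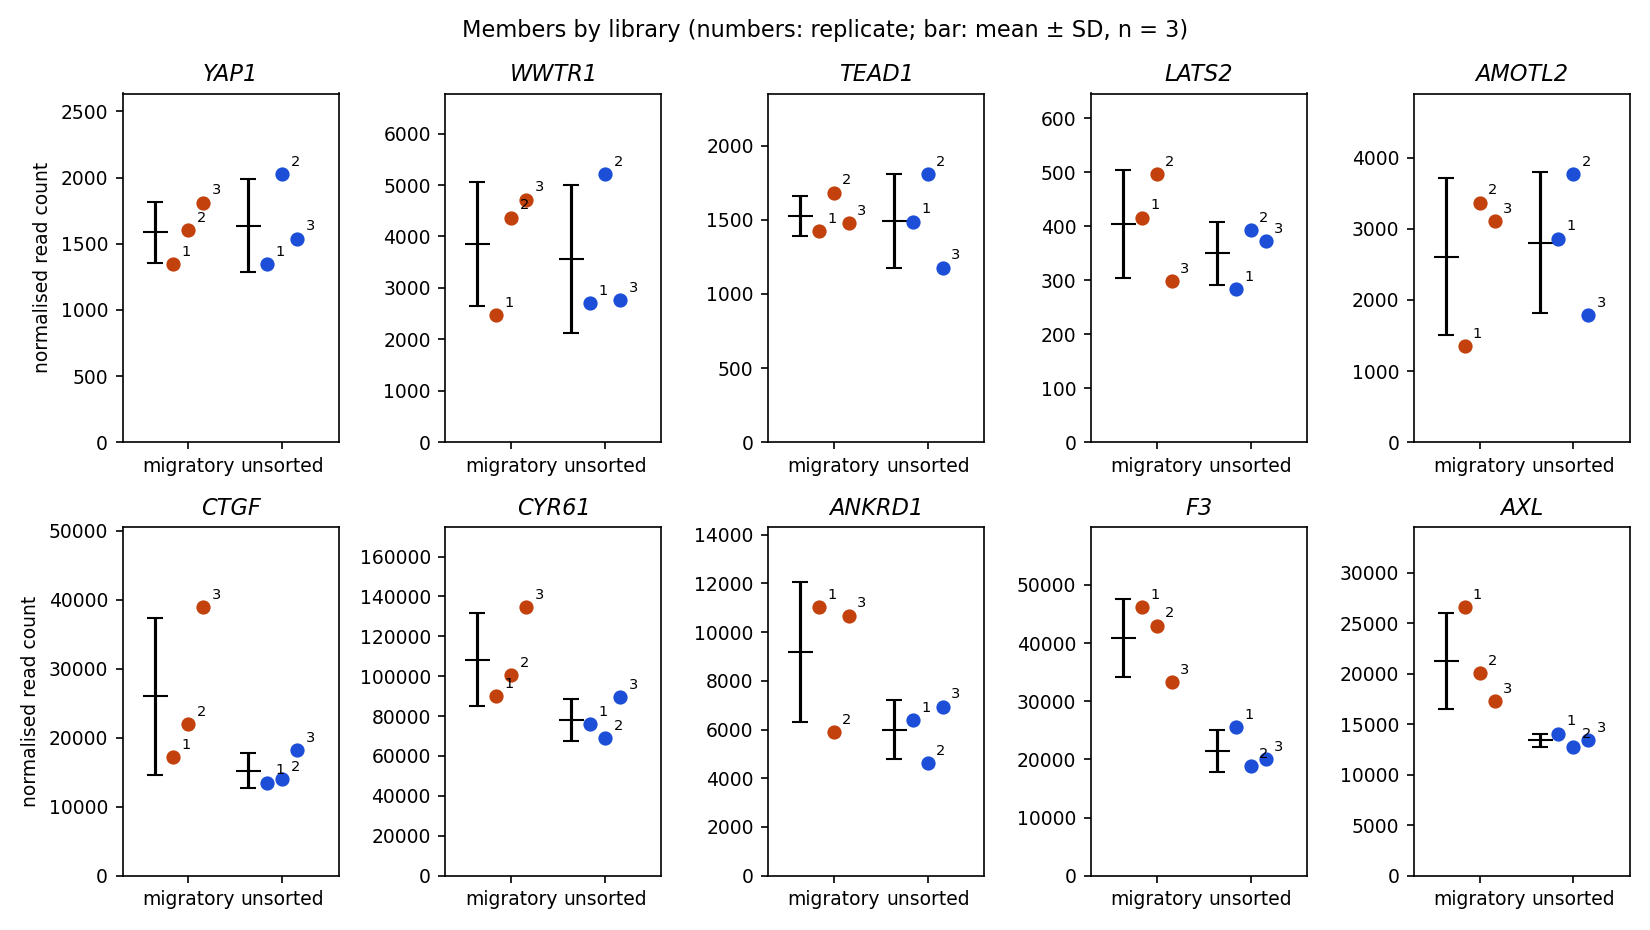
Normalised read counts (vertical axes, from 0) of the 10 genes in the 3 migratory (orange, left) and 3 unsorted (blue, right) libraries, numbered by replicate, with the mean and SD of each group as a black bar. F3, AXL and CYR61 show no overlap between groups, with CYR61 separated by the small step between 89829.6 in migratory replicate 1 and 89407 in unsorted replicate 3.

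YAP1 (chromosome 11, 102110461 to 102233423, plus strand), the coactivator YAP, was at 1346, 1603 and 1809 normalised read counts in migratory replicates 1 to 3 and at 1344, 2028 and 1538 in the unsorted replicates. The highest and the lowest value were both from unsorted libraries. The group means were 1586 ± 232 and 1636.5 ± 352 (SD, n = 3 each), a log2 fold change of -0.034 (SE 0.24) with a 95% interval of -0.56 to 0.49 and a limma adjusted p of 0.956. On the linear scale that interval runs from 0.678-fold to 1.41-fold. An antisense gene overlaps 9.97% of YAP1's exon sequence, and because the libraries do not mark strand, reads from the opposite strands cannot be told apart.

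WWTR1 (chromosome 3, 149517235 to 149736714, minus strand), which encodes the coactivator TAZ, was at 2471, 4362 and 4717 in migratory replicates 1 to 3 and at 2706, 5215 and 2758 in the unsorted replicates. The groups overlapped in part, since the lowest library was migratory replicate 1 and the highest unsorted replicate 2, with a highest to lowest ratio of 1.91 in migratory and 1.93 in unsorted libraries. The log2 fold change was 0.13 (SE 0.32), with a 95% interval of -0.59 to 0.85 and a limma adjusted p of 0.865. The antisense RNA WWTR1-AS1 overlaps 9.45% of its exon sequence.

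TEAD1 (chromosome 11, 12674591 to 12944483, plus strand) encodes a factor that carries YAP and TAZ to DNA. It was at 1425, 1682 and 1475 in migratory and at 1488, 1809 and 1176 in unsorted replicates 1 to 3. The migratory values all lay inside the unsorted range. Its log2 fold change was 0.053 (SE 0.23, 95% interval -0.46 to 0.57), with a limma adjusted p of 0.926.

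The other TEAD genes differed in level. Per kilobase of annotated exon, the group means in migratory and unsorted cells were 267 and 272 for TEAD3, 207 and 129 for TEAD4, 149 and 145 for TEAD1 and 122 and 131 for TEAD2. These levels are averages over 3 libraries, and TEAD4 was second in migratory cells and last in unsorted cells, just below TEAD2. TEAD4 was at 495, 425 and 491 normalised read counts in the migratory and at 279, 409 and 192 in the unsorted replicates. Every migratory value of TEAD4 was above every unsorted one, by a small step against unsorted replicate 2. Its log2 fold change was 0.74 (SE 0.32) with a limma adjusted p of 0.27. TEAD2 and TEAD3 overlapped between groups, with log2 fold changes of -0.092 (SE 0.25) and 0.0036 (SE 0.27). The sign of TEAD3 turned negative under TMM and upper-quartile scaling, in edgeR and in DESeq2, and that of TEAD2 positive with a length and GC trend removed. Exons of TEAD2 overlap those of CD37 on the opposite strand over 10.7% of their length.

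Between the coactivators, WWTR1 had the higher level per kilobase, at 458 in migratory and 423 in unsorted cells, against 252 and 260 for YAP1. These means used all annotated exons of a gene, and transcripts that skip exons would have higher values per kilobase. In both groups the levels of the 2 coactivators and TEAD1 per kilobase lay far below those of the target genes CYR61 (44080.2 and 31789), F3 (14192 and 7468) and CTGF (11121 and 6509). ANKRD1 (4643 and 3024) and AXL (4135 and 2605) came next in that order.

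Both inhibitory members were likewise not separated. LATS2 (chromosome 13, 20973032 to 21061547, minus strand), a kinase that phosphorylates YAP and TAZ, was at 416, 497 and 298 in migratory and at 283, 393 and 373 in unsorted replicates 1 to 3. Per kilobase of exon it had the lowest level of the 10, at 72.3 in migratory and 62.7 in unsorted cells. Migratory replicate 3 lay inside the unsorted range while the other migratory libraries lay above it. The log2 fold change was 0.19 (SE 0.30), with a limma adjusted p of 0.77. Its paralogue LATS1 was at 465, 394 and 512 in migratory and at 295, 404 and 449 in unsorted libraries, a log2 fold change of 0.27 (SE 0.28) with a limma adjusted p of 0.638.

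AMOTL2 (chromosome 3, 134355874 to 134375479, minus strand) encodes an angiomotin-like scaffold that binds YAP at cell junctions and on actin. It was at 1349, 3369 and 3113 in migratory and at 2861, 3772 and 1788 in unsorted replicates 1 to 3. Migratory replicate 1 was the lowest library and unsorted replicate 2 the highest. Per kilobase of exon its level was 436 in migratory and 469 in unsorted cells. The log2 fold change of -0.15 (SE 0.38, 95% interval -0.999 to 0.70) had the widest error of the 10 genes, with a limma adjusted p of 0.867.

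WWTR1, YAP1 and AMOTL2 had the same 3 highest libraries, which came from both groups. Their 3 highest values came in each case from unsorted replicate 2 and migratory replicates 2 and 3, and migratory replicate 1 was the lowest library for WWTR1 and AMOTL2. The same 3 libraries were those in which the longest genes (exons of 8047 bases or more, 2738 genes) sat highest. Their median, centred on each gene's mean over the 6 libraries, was -0.04, 0.13 and 0.07 on the log2 scale in migratory and -0.06, 0.14 and -0.10 in unsorted replicates 1 to 3. The exons of WWTR1, YAP1 and AMOTL2 span 8413, 6296 and 5984 bases, against 2339 for CTGF, 2455 for CYR61, 1979 for ANKRD1 and 2875 for F3. WWTR1 thus lies in the class of longest genes, while YAP1 and AMOTL2 lie outside it. TEAD1, the longest of the 10 at 10279 bases, and LATS2 (5578) and AXL (5154) did not have these 3 libraries as their highest. With a trend on length and GC content removed from each library, an alternative chosen after seeing the data, the log2 fold changes were -0.18 for YAP1, -0.063 for WWTR1, -0.014 for AMOTL2 and -0.15 for TEAD1, and none of these 4 passed. Further than this, the part of transcript length in these profiles was not tested.

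**Figure D2:**
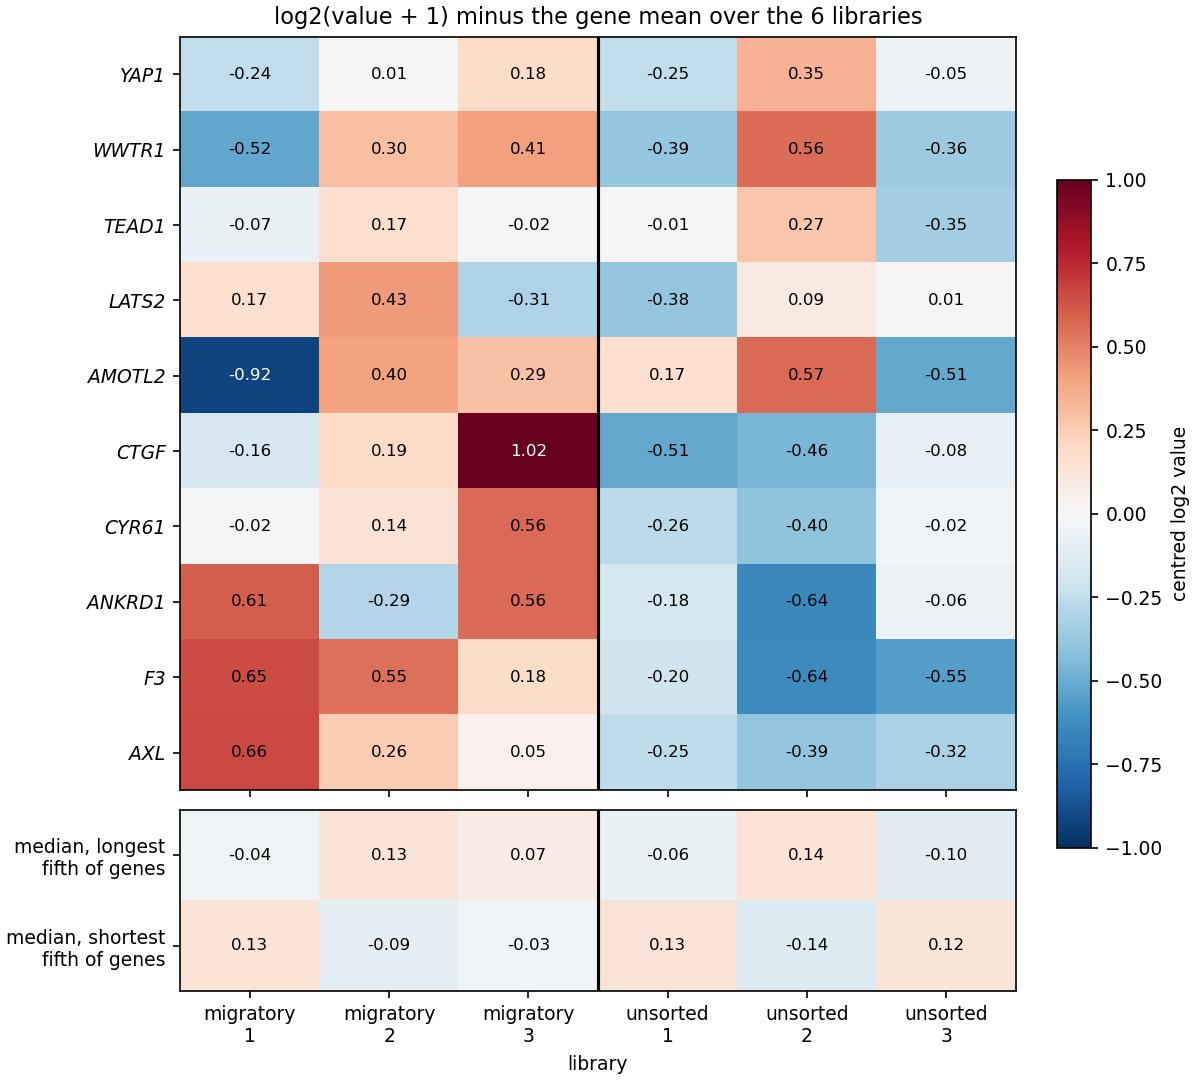
Centred log2 values (colour and printed number) of the 10 genes in each library, with migratory libraries left and unsorted libraries right of the black line, above the medians of the longest and the shortest genes tested. WWTR1 and AMOTL2 are high in unsorted replicate 2 (0.56 and 0.57) and migratory replicates 2 and 3, while F3 and AXL are high in migratory libraries and low in unsorted ones.

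The promoters of 3 target genes are shown because CTGF and ANKRD1 carry the letters of the TEAD motif and F3 does not. Each run is the 250 bases before the annotated start in RefSeq (GRCh38.p14), on the minus strand of the genome and written 5′ to 3′. Capitals mark the TEAD motif GGAATG (either strand) and the AP-1 motif TGANTCA (the same on either strand), and no match of one overlapped the other.
CTGF, chr6:131951373-131951622: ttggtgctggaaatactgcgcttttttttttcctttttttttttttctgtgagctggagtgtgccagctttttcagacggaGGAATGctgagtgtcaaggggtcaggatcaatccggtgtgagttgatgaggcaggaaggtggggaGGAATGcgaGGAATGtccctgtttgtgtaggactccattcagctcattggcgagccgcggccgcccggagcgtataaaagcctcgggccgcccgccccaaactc
ANKRD1, chr10:90921088-90921337: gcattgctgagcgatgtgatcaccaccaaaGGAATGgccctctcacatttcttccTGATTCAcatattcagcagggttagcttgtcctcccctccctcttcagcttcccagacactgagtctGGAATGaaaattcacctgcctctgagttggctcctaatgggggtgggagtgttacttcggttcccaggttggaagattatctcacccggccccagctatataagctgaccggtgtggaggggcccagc
F3, chr1:94541760-94542009: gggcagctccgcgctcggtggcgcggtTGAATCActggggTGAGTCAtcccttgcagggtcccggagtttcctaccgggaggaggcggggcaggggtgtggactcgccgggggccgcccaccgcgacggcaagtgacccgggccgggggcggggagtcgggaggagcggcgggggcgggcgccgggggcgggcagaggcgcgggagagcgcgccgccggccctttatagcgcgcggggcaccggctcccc

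CTGF had 3 matches of the TEAD motif, with first bases at -169, -104 and -95 relative to the start, where 0.0826% of the 35116 RefSeq windows of the same length held 3 or more. ANKRD1 had 2, with first bases at -220 and -128 (0.940% of windows held 2 or more), and 1 AP-1 match at -195. F3 had no TEAD match and 2 AP-1 matches, with first bases at -223 and -210, where 0.402% of windows held 2 or more. RefSeq windows were found for 8 of the 10 genes, 11 windows in all, since AMOTL2, AXL and WWTR1 have an alternative start each. No window of TEAD1 or CYR61 was in the promoter table used here. At least 1 TEAD match was in 5 of the 11 windows (1 each of YAP1, AMOTL2, CTGF, ANKRD1 and AXL), where 11.9% of all windows held one, and an AP-1 match in 2 of the 11, where 6.57% did. A match of letters is a description of the window and does not show that a factor binds there.

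**Figure D3:**
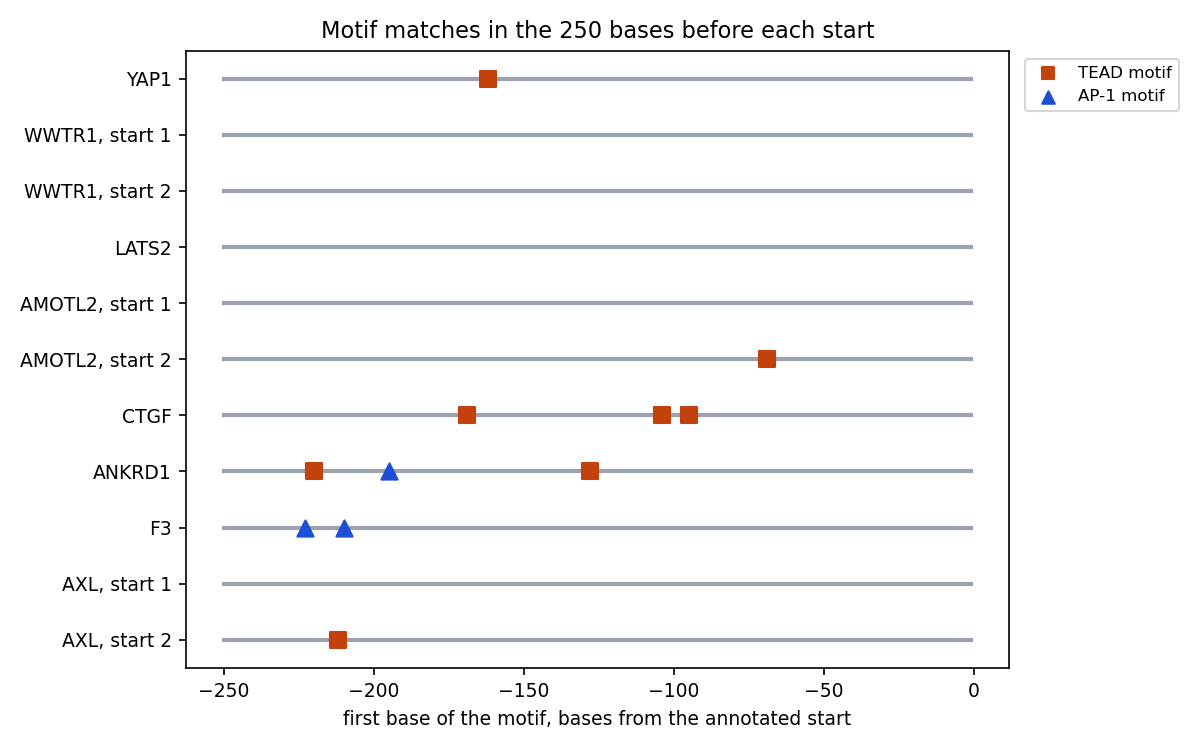
Positions of motif matches (squares for the TEAD motif, triangles for the AP-1 motif) in the 250 bases before each annotated start of 8 of the 10 genes, as distance from the start in bases. CTGF carries 3 TEAD matches and ANKRD1 2, while F3 carries 2 AP-1 matches and no TEAD match.

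CTGF (chromosome 6, 131948176 to 131951373, minus strand) encodes a secreted matricellular protein and is the target most often used as a readout of YAP activity. Its promoter is the first shown above. CTGF was at 17163, 21988 and 38888 in migratory and at 13468, 14014 and 18190.0 in unsorted replicates 1 to 3. Migratory replicates 2 and 3 lay above all unsorted libraries, and migratory replicate 1 lay below unsorted replicate 3. The means were 26013 ± 11408 and 15224 ± 2583 (SD, n = 3 each), a log2 fold change of 0.70 (SE 0.28) with a limma p of 0.0297 and an adjusted p of 0.234. Without migratory replicate 3 the log2 fold change was 0.36 (limma adjusted p 0.424). An antisense gene overlaps 8.34% of its exon sequence.

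CYR61 (chromosome 1, 85580761 to 85583962, plus strand), a matricellular protein of the same family that binds integrins, had the highest level of the 10 per kilobase of exon. It was at 89829.6, 100357 and 134464 in migratory and at 75905, 68815 and 89407 in unsorted replicates 1 to 3. The groups did not overlap, and migratory replicate 3 stood highest, as it did for CTGF. Its log2 fold change was 0.46 (SE 0.17), with a limma p of 0.0247 and an adjusted p of 0.221, and 0.29 without migratory replicate 3.

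ANKRD1 (chromosome 10, 90912096 to 90921276, minus strand) encodes an ankyrin-repeat protein of the nucleus and the sarcomere and is a standard YAP target in epithelial and cardiac cells. It was at 11011, 5888 and 10668 in migratory and at 6390, 4619 and 6943 in unsorted replicates 1 to 3. Migratory replicates 1 and 3 were above all unsorted libraries, whereas migratory replicate 2 was below both unsorted replicates 1 and 3. The log2 fold change was 0.58 (SE 0.27, 95% interval -0.01 to 1.18) with a limma adjusted p of 0.292. Without migratory replicate 2 it was 0.88, and without unsorted replicate 2 it was 0.41.

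F3 (chromosome 1, 94529225 to 94541800, minus strand), the membrane receptor tissue factor that starts coagulation, was at 46114, 43010.1 and 33285 in migratory replicates 1 to 3. In the unsorted replicates it was at 25553, 18840.5 and 20020.7. Every migratory value was above every unsorted value, with a gap of more than the whole unsorted range. The means were 40803 ± 6693 and 21472 ± 3584 (SD, n = 3 each), a log2 fold change of 0.93 (SE 0.18) with a limma p of 0.000458 and an adjusted p of 0.0703, and F3 ranked 102 by p among all genes tested. F3 was the 1 member called with array weights (limma adjusted p 0.0329, where 3.21% of all genes were called and 1.25% were higher). It was likewise the 1 called with a replicate block (0.0397, where 0.722% were called and 0.152% were higher) and with the length and GC trend removed (0.0462, where 0.741% were called and 0.298% were higher). With 1 library left out its limma adjusted p ranged from 0.0822 to 0.292.

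AXL (chromosome 19, 41219203 to 41261766, plus strand), a receptor tyrosine kinase for GAS6 that is linked to invasion, was at 26576, 20047 and 17316.5 in migratory and at 14062, 12767 and 13451 in unsorted replicates 1 to 3. The unsorted values were tight, with a highest to lowest ratio of 1.10, and all lay below the migratory ones. The log2 fold change was 0.64 (SE 0.18) with a limma p of 0.00551 and an adjusted p of 0.129. An exact permutation test over the 6 samples gave F3, AXL and CYR61 a two-sided p of 0.1 each, the smallest that 3 against 3 allows.

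**Figure D4:**
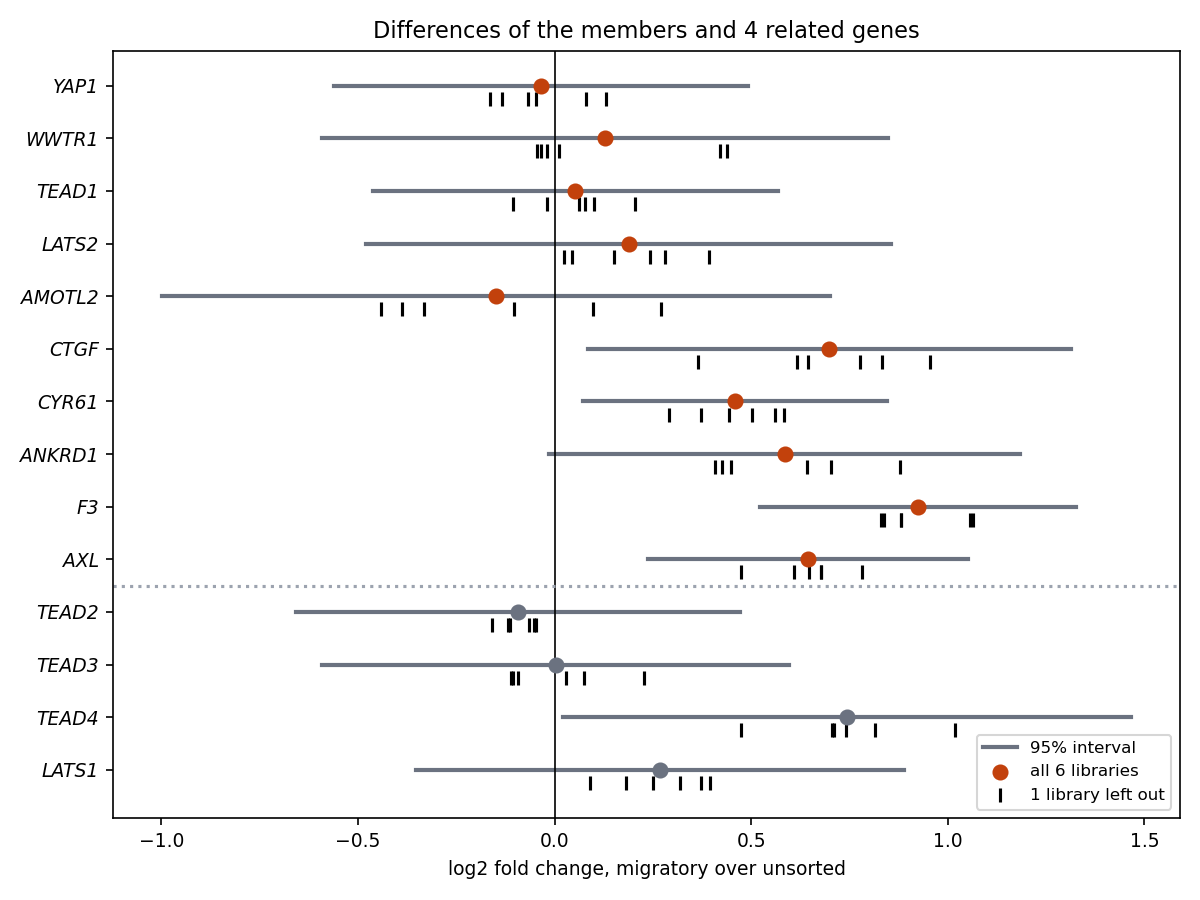
Log2 fold change (horizontal axis, migratory over unsorted) of the 10 genes (orange) and of TEAD2, TEAD3, TEAD4 and LATS1 (grey, below the dotted line), with 95% intervals as lines and values with 1 library left out as ticks. The interval of F3 runs from 0.52 to 1.33, and the intervals of YAP1, WWTR1, TEAD1, LATS2, AMOTL2 and ANKRD1 include 0.

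Some of the 10 genes had like profiles. Over the 6 libraries the root-mean-square difference of centred log2 values was 0.19 between F3 and AXL, the smallest of the 45 pairs among the 10 genes. It was 0.20 between YAP1 and TEAD1 and 0.22 between CTGF and CYR61, and largest between AMOTL2 and ANKRD1 at 0.88. F3 and AXL had migratory replicate 1 as their highest library, and CTGF and CYR61 had migratory replicate 3. Such distances are descriptions over 6 libraries that share the 2 groups. They are not scaled to the spread of each gene, so genes that vary little come out near each other. YAP1 and TEAD1 did not have the same 3 highest libraries. Genes outside the lists, given next, came nearer to CTGF and to CYR61 than these did to each other.

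By the same distance, 12247 genes outside the lists (mean 50 or more) were ranked. The nearest of so many genes over 6 libraries lie far below the median by selection alone, so they are given as descriptions. The nearest to CTGF were AC137932.6 at 0.06, UNKL at 0.08 and MSRB3, a methionine sulphoxide reductase, at 0.09, against a median of 0.61. AC137932.6 was low, at 58.0, 73.0 and 127.7 in migratory and 39.96, 43.0 and 57.1 in unsorted libraries. The nearest to CYR61 were EPN2, an endocytic adaptor, and NUFIP1, both at 0.05, and C4orf32 at 0.07, against a median of 0.46. EPN2 was at 1062, 1221 and 1598 in migratory and at 894, 902 and 1067 in unsorted libraries.

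Other genes of the pathway were read from lists, given with the members left out. Over all 15786 genes tested, the value was higher in migratory cells for 7594 and lower for 8192. Of 15 further genes of a published 22-gene YAP-TAZ target signature, 0 passed limma and 2 had an unadjusted p under 0.05 (17.7% of all genes did). Of the same 15, edgeR called 0 and DESeq2 1, where they called 0.133% and 5.91% of all genes. Their values were higher for 10 and lower for 5, with a median log2 fold change of 0.029, beside -0.026 over all genes tested and 0.32 over the 10 members. That median rested on single libraries, at 0.33, -0.021 and -0.11 when migratory replicates 1, 2 and 3 were left out in turn, and at 0.34 when unsorted replicate 2 was. In 3 of the 15 all migratory values lay above all unsorted ones, where 11.3% of all genes did, and in 1 (NUAK2) all lay below, where 12.5% did. NT5E, the ectonucleotidase CD73, was at 12973 ± 1630.1 in migratory and 6845 ± 2449 in unsorted cells, a log2 fold change of 0.97 (SE 0.24) with a limma adjusted p of 0.104. CRIM1, a transmembrane BMP-binding protein, was at 1314 ± 209 and 756 ± 305, CCDC80 at 746 ± 53.4 and 484 ± 199.9, and the kinase NUAK2, with the lower value in migratory cells, at 239 ± 45.6 and 365 ± 73.2. None of these 4 passed, and the groups of CRIM1 overlapped.

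Among 19 of 21 other genes described as YAP-TAZ targets (FGF2 was not analysed, and CAVIN2, which the table holds under its older symbol SDPR, was not counted), 1 was called higher by limma and 0 lower, where 0.0443% of all genes were called higher. Over the 19, values were higher for 16 and lower for 3, with a median log2 fold change of 0.43, beside -0.026 over all genes tested. That median was at 0.30 to 0.52 with 1 library left out. An unadjusted p under 0.05 was found for 8, where 17.7% of all genes had one. The list was written with earlier results of these data known, so its counts are no independent support. SDPR itself was at 1294 ± 270.3 in migratory and 1789 ± 249 in unsorted cells, with a log2 fold change of -0.48 (limma adjusted p 0.314). The G1 cyclin CCND1 was at 11477 ± 2584 in migratory and 5903 ± 580 in unsorted cells, a log2 fold change of 0.94 (SE 0.21) with a limma adjusted p of 0.0812. TNFRSF12A, the receptor Fn14, was at 22453 ± 3424 and 13739.5 ± 664, and the mitotic survivin gene BIRC5 at 9036 ± 143 and 5553 ± 50.5, with limma adjusted p of 0.0965 and 0.0819. None of these 3 passed limma, and all 3 had every migratory library above every unsorted one. That held for 5 of the 19, where 11.3% of all genes did so. All 3 were called in DESeq2 and with array weights, where 5.91% and 3.21% of all genes were called. They were named for their small limma p within the list, so these calls on the same libraries are no independent support. Of the 19, edgeR called 1 and DESeq2 4, where edgeR called 0.133% of all genes.

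Of 37 genes of the Hippo kinase core and its upstream regulators (MAP4K1, DCHS1 and DLG5 were not analysed) 0 passed limma, 5 had an unadjusted p under 0.05, and edgeR called 0 and DESeq2 2. Over all genes those shares were 17.7% at the unadjusted p and 5.91% in DESeq2, so neither count stood above them. Values were higher for 25 and lower for 12 (median log2 fold change 0.24, and 0.091, 0.13 and 0.16 without migratory replicate 2 and unsorted replicates 3 and 1, each left out in turn). MAP4K2, a kinase of the group that can activate LATS, had the lower value, at 549, 537 and 559 in migratory and at 1064, 1284 and 939 in unsorted replicates 1 to 3. Its migratory values were tight and all below the unsorted ones, with a log2 fold change of -0.99 (SE 0.23) and a limma adjusted p of 0.099. FRMD6, the human relative of the fly Hippo activator Expanded, had the higher value, at 11774 ± 2537 and 6295 ± 2015. STK4, the kinase MST1, was at 1879 ± 57.3 and 1244 ± 142, and MOB1A, the LATS cofactor, at 8080 ± 1240 and 5691 ± 674, with limma adjusted p of 0.183 and 0.214.

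Of 18 nuclear partners and inhibitors of YAP and TAZ (VGLL1, VGLL2, AMOT and YWHAE were not analysed) 0 passed limma, 3 had an unadjusted p under 0.05, and neither edgeR nor DESeq2 called any. Values were higher for 12 and lower for 6, with a median log2 fold change of 0.13 (0.25 without migratory replicate 3). The 14-3-3 protein YWHAZ, one of the family that holds phosphorylated YAP in the cytoplasm, was at 117287 ± 6498 in migratory and 87292 ± 4014 in unsorted cells (limma adjusted p 0.126), and YWHAB at 42209 ± 1115 and 35211 ± 3747. VGLL3, a TEAD-binding cofactor, was low, at 108 ± 34.1 and 44.4 ± 16.3. A further list held 22 tested genes of MRTF and SRF, an actin-regulated pair of factors that share CTGF, CYR61 and ANKRD1 as targets, and counted the factor genes SRF, MKL1 and MKL2 with the targets. Of these 22, 0 passed limma, 4 had an unadjusted p under 0.05, and neither edgeR nor DESeq2 called any. Both this share and the 3 of 18 above lay near the 17.7% of all genes. Values were higher for 15 and lower for 7, with a median log2 fold change of 0.26, and of 0.14, 0.15 and 0.17 without unsorted replicate 1, migratory replicate 2 and unsorted replicate 3, each left out in turn. ACTG2 and CNN1 were not analysed, MRTFA was counted under its older symbol MKL1, and the cytoplasmic actin ACTG1 was at 263493 ± 6630 and 194897 ± 14519 (limma adjusted p 0.106). CNN2 was at 14510 ± 2577 and 9555 ± 639, TPM1 at 6998 ± 422 and 5005 ± 971, and ACTB at 656009 ± 107317 and 524118 ± 20931. These genes were named for their small p, and others of the list went the other way. In 5 of the 22 every migratory library lay above every unsorted one and in 1 (TPM2) below, where 11.3% and 12.5% of all genes did. ACTA2 and TAGLN, picked out after their values were seen, had log2 fold changes of -0.90 and -0.38, with overlapping groups.

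**Figure D5:**
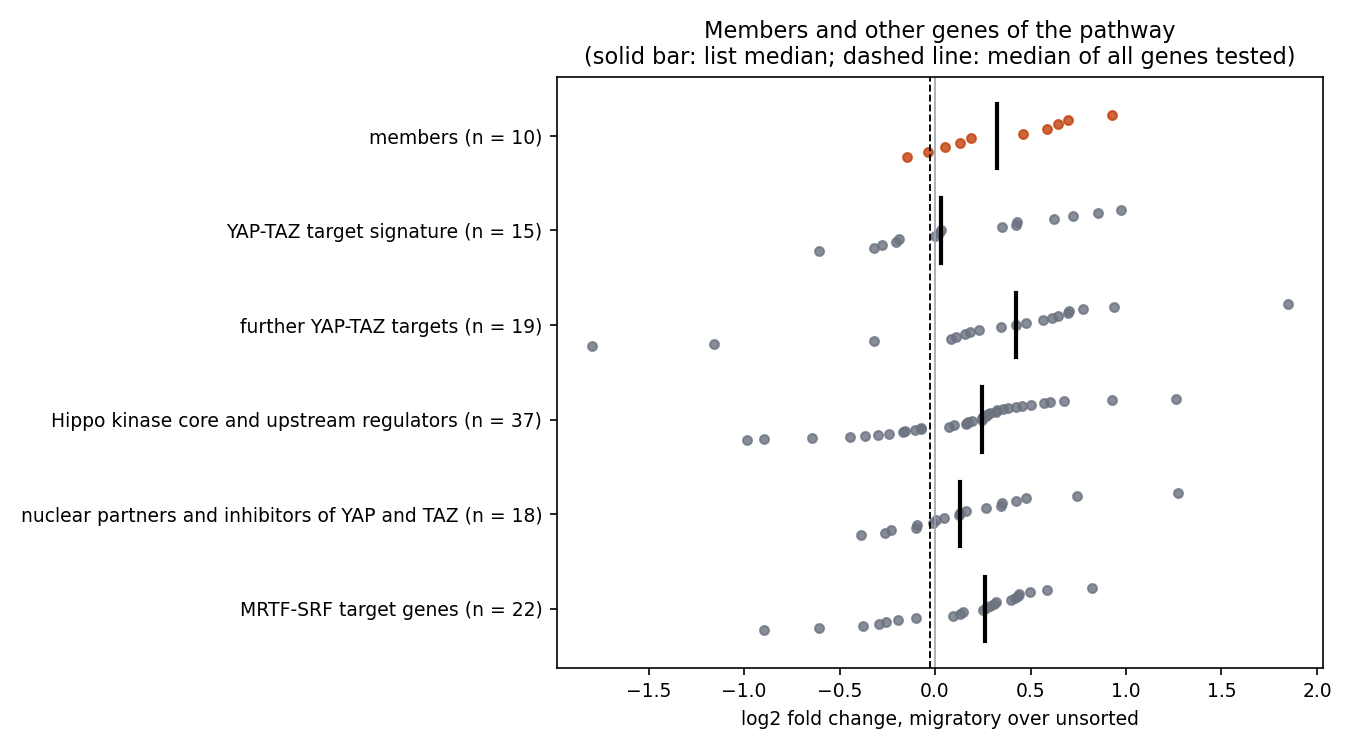
Log2 fold changes (horizontal axis, migratory over unsorted) of the 10 genes (orange) and of the other measured genes of each pathway list (grey), 1 point per gene, with the list median as a solid bar and the median of all genes tested, -0.026, as a dashed line. The signature without the 10 genes has its median at 0.029, between -0.11 and 0.34 with 1 library left out. The kinase core and the MRTF-SRF list, factors included, have theirs at 0.24 and 0.26, and at 0.091 and 0.14 at the lowest with 1 library left out.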

How the data were processed

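The deposited table holds a normalised signal per gene, which the authors obtained from whole read counts with 1 size factor for each library. The submitters' processing notes name HISAT2, HTSeq, DESeq2, hg38 and GRCh38.p7. Versions, settings, annotation and gene filter: not given in the sources used here. Per the labels' protocols, full-length cDNA was amplified with a SMART-seq kit, tagmented and sequenced on 4 lanes per sample. These kits mark neither strand nor single molecules, and PCR copies of 1 molecule can be counted more than once. Dividing each library's values by the value of a single read, found from the table's steps, returned read counts, 100% of them whole within 0.01 read.

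Groups were compared two-sided with limma 3.58.1 (R 4.3.3, trended prior variance) on log2(value + 1), keeping genes whose mean was 10 or more. The pseudocount shrinks the fold changes of low genes. Benjamini-Hochberg adjustment ran over all 15786 genes tested, with a threshold of 0.05. edgeR 4.0.16 (quasi-likelihood) and DESeq2 1.42.0 on whole reads were alternatives, the scripts were tested on simulated data, and adjusted p-values that DESeq2 left as NA stayed so. The other alternatives were pseudocounts of 0.5 and 10, no filter or one at 50, other scalings, array weights, a replicate block, 1 library left out and a length and GC trend removed.

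The members, the lists and the rule for named genes were chosen with earlier results of these data known. The rule named all members, the other TEAD genes, LATS1, the 4 smallest p-values per list and the 3 nearest profiles to CTGF and CYR61. An item that the rule named and that entered the tests and counts is not reported here. Coordinates and exon lengths came from GENCODE 29 on GRCh38, matched by symbol for 85.8% of genes, and the submitters' annotation may differ.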

Additional observations from a re-analysis of the deposited data

How the results depend on the processing

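F3, AXL, CTGF, CYR61 and ANKRD1 kept a higher value in migratory cells under each of 18 alternatives. LATS2 did too but came near 0, at 0.023 without migratory replicate 2 and 0.045 without unsorted replicate 1. The numbers of genes called by limma, 37 with all libraries, were 97 with a pseudocount of 10, 78 with a filter at 50, 75 with upper-quartile scaling, 507 with array weights, 114 with the replicate block and 117 with the length and GC trend removed, 21 in edgeR and 933 in DESeq2, and 1 to 44 with 1 library left out (44, 15 and 14 without migratory replicates 1, 2 and 3, and 1, 2 and 1 without unsorted replicates 1, 2 and 3). Of the 10 genes, 1 was called (F3) with array weights, with the replicate block (adjusted p 0.0397) or with the trend removed, and 2 in DESeq2 (F3 at 0.00206, AXL at 0.0428). Replicate numbers were not taken as pairs, because the labels do not say that a number marks a shared culture or day. Deviations of same-numbered libraries correlated across genes at 0.117, 0.108 and 0.037, and those of differently numbered libraries at -0.162 to 0.072. Migratory replicate 3 was nearer to unsorted replicate 2 (0.072) than to unsorted replicate 3. These correlations do not settle whether the numbers mark pairs.

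In the signature list 1 gene (NT5E) was called with array weights and 1 in DESeq2, and its median was 0.35 with array weights and 0.27 with the trend removed. Among the other targets 5 were called with array weights, 4 in DESeq2, 3 with the trend removed and 2 with the replicate block (ADAMTS1, lower, among them), and 1 to 2 with 1 library left out. In the kinase list 2 (FRMD6 and MAP4K2) were called with array weights and 2 in DESeq2. In the MRTF-SRF list 2 were called with array weights and 1 with the trend removed. Over all genes the shares called were 3.21% with array weights, 5.91% in DESeq2, 0.741% with the trend removed and 0.722% with the replicate block.

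Directions near 0 turned. YAP1 had log2 fold changes of 0.10 with array weights, and of -0.17 to 0.13 with 1 library left out. WWTR1 was at -0.063 with the trend removed and at -0.046 to 0.44 with 1 left out, TEAD1 at -0.15 and at -0.11 to 0.20. AMOTL2 was at 0.23 with array weights and at -0.44 to 0.27 with 1 left out. TEAD2 was at 0.16 with the trend removed. TEAD3 was at -0.026 with upper-quartile scaling, -0.0072 with TMM, -0.043 in edgeR and -0.025 in DESeq2, and at -0.11 to 0.23 with 1 left out. The cause of these turns was not tested.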

Other observations

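ADAMTS1, a secreted metalloprotease that is in the list of other YAP-TAZ targets and was picked out after its values were seen, stood against the direction of most of that list. It was at 370.03, 1164 and 2472 normalised read counts in migratory and at 1617, 6479 and 4283 in unsorted replicates 1 to 3, a log2 fold change of -1.80 (SE 0.66) with a limma adjusted p of 0.211. The groups overlapped, since migratory replicate 3 lay above unsorted replicate 1.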
